A study of Mus musculus with 6 samples.

Results

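The genes described are 40 genes of mitosis and the spindle, taken by symbol from a table of 23867 genes. All 40 were found and all passed the filter on low counts. The data are bulk RNA sequencing of mouse chondrocytes, the cells of cartilage, in 6 libraries. The wild-type group carries the genotype label MFN2wt and holds 3 libraries, WT1 to WT3. The knockout group is labelled MFN2Col2a1-/-, which pairs Mfn2, a mitofusin of the mitochondrial outer membrane, with Col2a1, a cartilage collagen gene. Its 3 libraries are named CRE1 to CRE3. How the deletion was driven, the strain, the age, any treatment or culture and any allele that the groups share are not stated in the labels. Nor do the labels tie the libraries to separate animals, so a p-value reflects the spread between libraries, which may be technical.

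Dividing cells make these genes in a wave that starts after DNA synthesis and peaks at mitosis, and non-dividing cells keep most of them nearly silent. The kinase CDK1 with cyclins A and B drives entry into mitosis, Polo and Aurora kinases build the spindle, kinetochores tie chromosomes to it, and a checkpoint holds separation until every chromosome is attached. The anaphase-promoting complex then marks cyclin B and securin for destruction, and the central spindle and contractile ring split the cell. In cartilage, dividing chondrocytes are found mainly in the growth plate, while mature articular chondrocytes seldom divide.

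Levels are CPM, counts scaled by library size and TMM factors, which correct for composition. Values after ± are SDs over n = 3 libraries. Fold changes compare knockout with wild type on the log2 scale. Adjusted p-values come from edgeR's quasi-likelihood test with Benjamini-Hochberg adjustment over all 15028 tested genes, and a gene passed at an adjusted p under 0.05. Column totals ran from 31481779 to 40152687 counts, the 3 knockout libraries being the shallower. The targeted gene Mfn2 read 64, 56.5 and 59.4 CPM in the knockout libraries against 108, 108 and 106 CPM in the wild-type ones (log2 fold change −0.84, adjusted p = 2.24e-10, edgeR). The cartilage markers Col2a1 and Acan were detected in both groups. They read 509 ± 29 and 49 ± 1.55 CPM in knockout libraries against 3397 ± 71.3 and 352 ± 17.9 CPM in wild-type ones. Both fell (log2 fold changes −2.74 and −2.85), as did all 8 chondrocyte markers listed, beside 32.1% of tested genes lower. The largest fall of the 8 was that of Matn3, at 0.904 ± 0.22 CPM in the knockout against 28.7 ± 1.96 CPM. Whether the groups hold the same mix of cells was not tested.

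Mitosis genes were lower in the knockout in each of the 5 roles examined. Of the 40 genes, 39 fell, none rose and 1, the securin gene Pttg1, did not pass the test. Of all tested genes 62.7% were called, 32.1% as lower. The 39 falls were each at least 2-fold, a size that 12.0% of tested genes reached, and 29 were at least 4-fold, which 5.48% of tested genes reached. In the same 39 genes every knockout library lay below every wild-type library, a separation seen in 34.8% of tested genes. The median log2 fold change of the 40 genes was −2.49, a 5.63-fold lower level, beside −0.02 for all tested genes. The range ran from −3.86 for Pbk to −0.16 for Pttg1. The largest adjusted p among the 39 falls was 7.59e-07, for Cdc25c. In these bulk samples fewer dividing cells and less RNA of these genes per cell cannot be told apart.

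**Figure D1:**
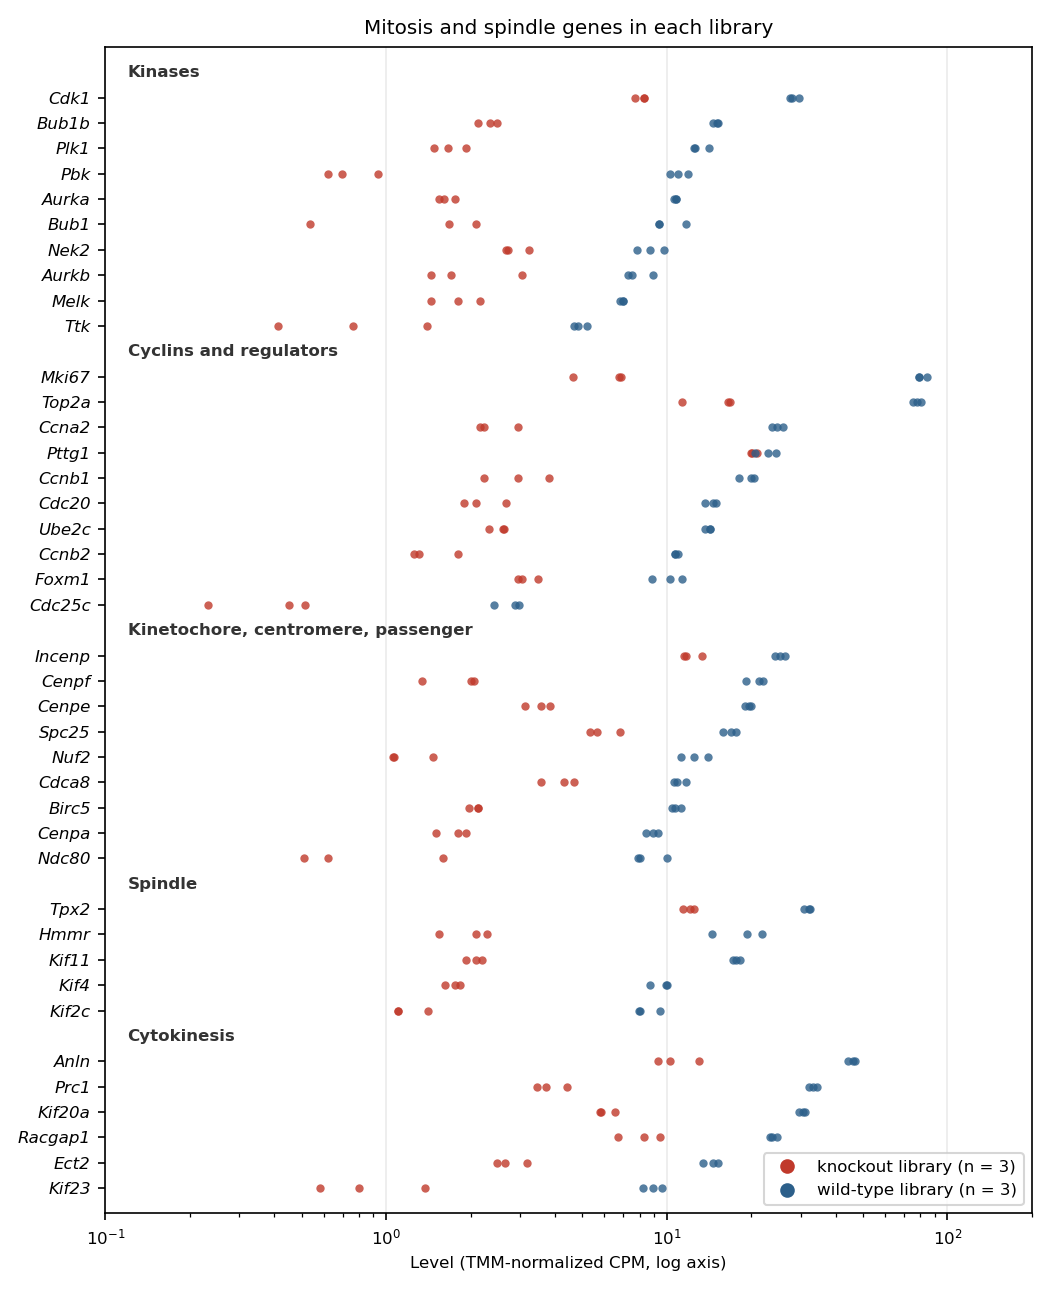
Level of each of the 40 genes in each library, in TMM-normalized CPM on a log axis, grouped by role, with 1 point per library (3 knockout, 3 wild type). The knockout points lie to the left of the wild-type points in 39 genes, and in Pttg1 they overlap.

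The summed level of the 40 genes was 160, 165 and 171 CPM in CRE1, CRE2 and CRE3 and 775, 761 and 779 CPM in WT1, WT2 and WT3. The groups did not overlap, and the libraries within a group lay close together. By role the sum in the knockout was 20.2% of the wild-type sum for the kinases, 20.3% for cyclins and regulators, 24.9% for kinetochore, centromere and passenger genes, 22.1% for spindle genes and 20.9% for cytokinesis genes. No knockout library was low throughout: CRE1 was the lowest of the 3 in 15 genes, CRE2 in 12 and CRE3 in 13.

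Many mitotic promoters carry a cell cycle homology region (CHR), bound by the MuvB core of the DREAM and MYB-MuvB complexes, and CCAAT boxes, bound by NF-Y. RefSeq promoter windows (GRCm38.p6, 250 bases before to 50 after the start) matched 32 of the 40 genes by symbol, in 34 windows. Those not matched were Ccna2, Pbk, Tpx2, Foxm1, Kif20a, Cdc25c, Aurkb and Incenp. The letters TTTGAA, a common form of the CHR, were searched on both strands and stood in 26 of the 34 windows, or 76.5%, against 17.9% of all 32851 windows and 12.3% of the 14954 windows of tested genes. CCAAT, also searched on both strands, stood in 27 windows, or 79.4%, against 37.4% of all windows, and 19 windows held more than 1 match. Both motifs stood together in 23 windows, or 67.6%, against 6.95% of all windows. Of the TTTGAA matches, 1 overlapped a CCAAT match. A match describes the letters and is not a measured site.

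The 130 bases just before the RefSeq start are shown for 6 genes that span the pattern: 4 with both motifs, Ccnb1 with CCAAT boxes but no TTTGAA, and Pttg1 with neither. Capitals mark matches to either motif on either strand (TTCAAA and ATTGG are the reverse-strand forms). Each sequence is written 5′ to 3′ on the gene's strand, and the genes were chosen after their values were seen. They lie at chr10:69352913-69353042 (Cdk1, minus strand), chr4:118437344-118437473 (Cdc20, minus strand), chr2:164769799-164769928 (Ube2c, plus strand), chr11:99024190-99024319 (Top2a, minus strand), chr13:100786487-100786616 (Ccnb1, minus strand) and chr11:43425982-43426111 (Pttg1, minus strand), all in GRCm38.p6.
Cdk1: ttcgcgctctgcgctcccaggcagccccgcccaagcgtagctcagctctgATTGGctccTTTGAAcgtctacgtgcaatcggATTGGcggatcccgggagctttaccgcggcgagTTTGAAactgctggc
Cdc20: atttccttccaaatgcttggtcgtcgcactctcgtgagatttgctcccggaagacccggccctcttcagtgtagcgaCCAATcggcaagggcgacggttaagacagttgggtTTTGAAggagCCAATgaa
Ube2c: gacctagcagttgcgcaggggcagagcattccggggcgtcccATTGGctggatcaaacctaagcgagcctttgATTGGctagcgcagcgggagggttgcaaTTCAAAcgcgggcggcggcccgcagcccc
Top2a: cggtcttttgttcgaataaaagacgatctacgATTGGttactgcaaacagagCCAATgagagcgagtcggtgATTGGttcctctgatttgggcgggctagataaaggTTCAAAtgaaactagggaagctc
Ccnb1: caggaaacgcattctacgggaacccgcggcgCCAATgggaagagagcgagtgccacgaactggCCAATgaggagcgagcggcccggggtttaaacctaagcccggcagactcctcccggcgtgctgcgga
Pttg1: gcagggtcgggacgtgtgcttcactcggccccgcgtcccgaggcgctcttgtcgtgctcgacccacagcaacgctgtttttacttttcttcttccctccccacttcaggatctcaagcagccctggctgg

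Over the whole windows, 25 of the 33 TTTGAA matches lay between base −40 and base 50 from the start, and 50 of the 64 CCAAT matches between base −150 and base −1. The overlapping windows of Ect2, and those of Prc1, repeat the same matches, so these counts are not all separate sites. Matches in these bands were not counted for the windows of other genes. The 23 windows with both motifs, of 21 genes, had a median log2 fold change of −2.69 (−3.72 to −1.40). Medians were similar for the 3 windows with TTTGAA alone (−2.80) and the 4 with CCAAT alone (−2.59). The 4 windows with neither belonged to Nuf2, Birc5, Melk and Pttg1, with log2 fold changes of −3.37, −2.37, −1.94 and −0.16.

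**Figure D2:**
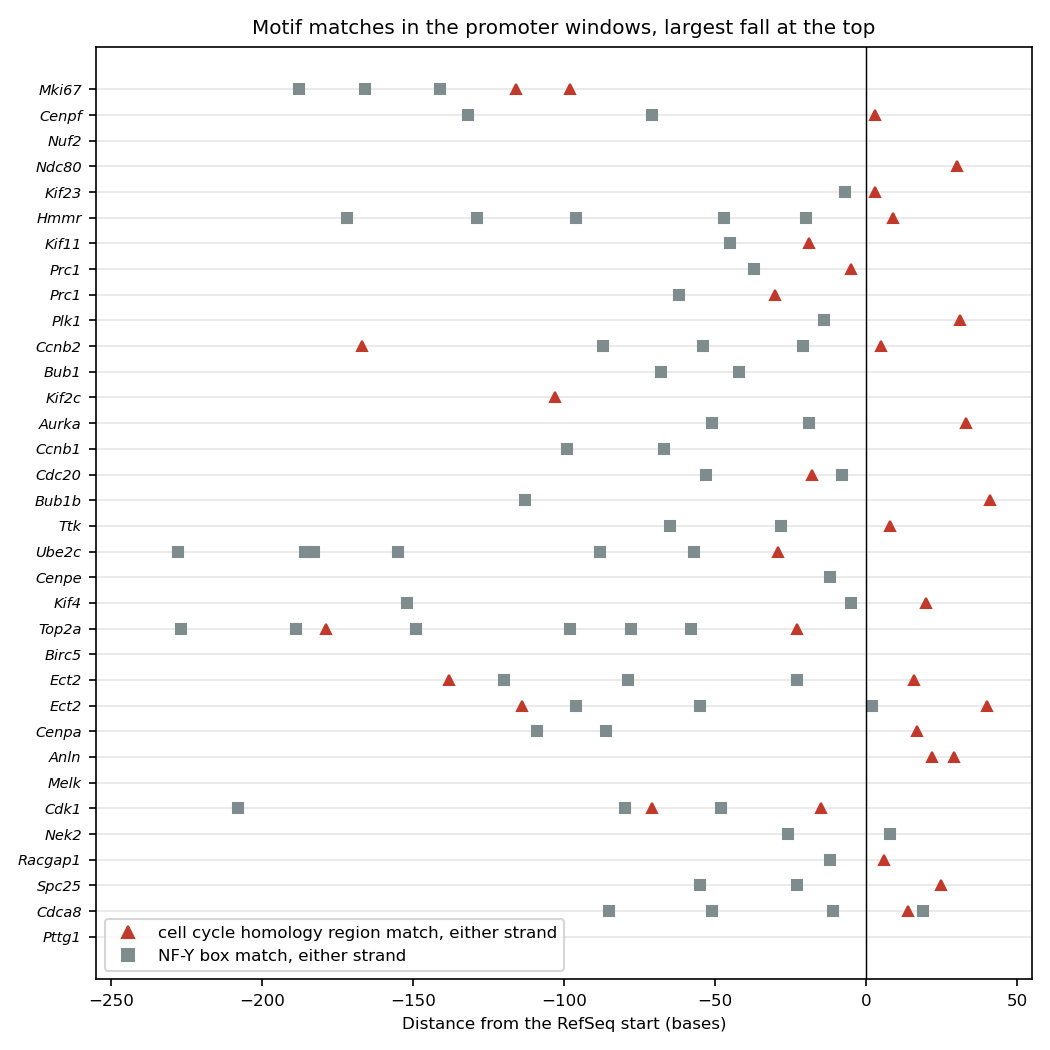
Position of each motif match (x axis, bases from the RefSeq start, negative before it) in the 34 promoter windows of 32 genes, largest fall at the top. Triangles, matches of the cell cycle homology region, lie mostly near the start, 25 of 33 between −40 and 50, and squares, NF-Y box matches, mostly before it, 50 of 64 between −150 and −1. The overlapping windows of Ect2, and those of Prc1, repeat the same matches.

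All 10 kinases fell, and their median log2 fold change was −2.60. Cdk1, the kinase that drives entry into mitosis, read 8.32, 7.69 and 8.31 CPM in CRE1 to CRE3 against 27.9, 29.5 and 27.4 CPM in WT1 to WT3. The knockout libraries were close to each other and far below the wild type (log2 fold change −1.80, SE 0.0720, adjusted p = 4.25e-12, edgeR). Plk1, the Polo kinase of centrosome maturation and mitotic exit, read 1.48, 1.92 and 1.66 CPM in the knockout libraries against 14.1, 12.6 and 12.5 CPM in the wild-type ones. It fell 7.68-fold, with a 95% interval of the log2 fold change of −3.22 to −2.66 that lay wholly below the −1.96 to −1.65 of Cdk1.

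Aurka, which acts at spindle poles, read 1.55, 1.61 and 1.76 CPM against 10.8, 10.8 and 10.6 CPM, a 6.55-fold fall with little spread in either group. Aurkb, the Aurora kinase of the chromosomal passenger complex, read 3.06, 1.44 and 1.70 CPM against 7.25, 8.93 and 7.50 CPM. CRE1 held the highest Aurkb level of the knockout libraries, though still below the wild type, and the fall was 3.87-fold. The intervals of the Aurora kinases narrowly missed overlapping, at −2.98 to −2.44 for Aurka and −2.39 to −1.51 for Aurkb. The difference between their falls was not tested.

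Some kinases of the spindle checkpoint had scattered knockout values. Bub1, a checkpoint kinase of the kinetochore, read 1.68, 0.537 and 2.09 CPM in the knockout libraries, from 49, 19 and 63 counts, against 9.36, 9.36 and 11.7 CPM. CRE2 was the low library here, and the fall was 7.24-fold (interval −3.41 to −2.30). Ttk, the kinase that starts checkpoint signalling, read 0.412, 0.763 and 1.40 CPM, with CRE3 the high library, against 5.18, 4.67 and 4.84 CPM, a 5.69-fold fall. Bub1b, which encodes the checkpoint protein BUBR1, was tighter, at 2.34, 2.49 and 2.13 CPM against 14.6, 15.1 and 15.2 CPM, a 6.45-fold fall.

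Pbk, a kinase of proliferating cells, had the largest fall of the 40 genes. Its levels were 0.619, 0.933 and 0.698 CPM in the knockout libraries, from 18, 33 and 21 counts, against 11.9, 10.3 and 11 CPM in the wild-type ones. The knockout level was 6.89% of the wild-type level (log2 fold change −3.86, SE 0.162, adjusted p = 7.76e-12, edgeR). Melk, a kinase abundant in proliferating cells, and Nek2, which acts in centrosome separation, fell 3.83-fold and 3.05-fold, from wild-type levels of 6.93 ± 0.108 and 8.76 ± 0.963 CPM.

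Of the 10 cyclins, activators and regulators, 9 fell and Pttg1 did not pass, and the median log2 fold change was −2.71. Ccna2, cyclin A2 of S phase and mitotic entry, read 2.23, 2.94 and 2.16 CPM against 24.6, 23.8 and 25.9 CPM, a fall of 10-fold (interval −3.56 to −3.10). The B-type cyclins, partners of CDK1, fell 6.56-fold for Ccnb1 and 7.30-fold for Ccnb2, with overlapping intervals of −3.0 to −2.43 and −3.17 to −2.56. Ccnb1 read 3.82, 2.23 and 2.96 CPM against 18.1, 20.4 and 20 CPM, and Ccnb2 1.31, 1.81 and 1.26 CPM against 10.7, 10.7 and 11 CPM. Cdc25c, the phosphatase that activates CDK1, had the lowest wild-type FPKM of the 40 genes and few counts, 15, 16 and 7 in the knockout against 123, 102 and 129 in the wild type. It fell 6.83-fold with a wide interval of −3.41 to −2.14.

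Genes of the exit from mitosis differed from each other. Cdc20, the activator of the anaphase-promoting complex in mitosis, read 2.68, 2.09 and 1.90 CPM against 13.7, 15 and 14.6 CPM, a 6.51-fold fall. Ube2c, the ubiquitin-conjugating enzyme of that complex, read 2.61, 2.63 and 2.33 CPM against 14.3, 13.7 and 14.2 CPM, a 5.57-fold fall. Pttg1, which encodes securin, the inhibitor of separase that the complex destroys, read 20.1, 20 and 21 CPM in the knockout libraries against 24.5, 20.6 and 23 CPM in the wild-type ones. CRE3 lay above WT2, so the groups overlapped.

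The log2 fold change of Pttg1 was −0.16 (SE 0.0713, adjusted p = 0.0698, edgeR), and its knockout level was 89.8% of the wild-type level. The call depended on the libraries kept and on the scaling. Without WT2, Pttg1 passed at a log2 fold change of −0.22 (adjusted p = 0.0173, edgeR). It also passed with upper-quartile factors at −0.25 and with total counts at −0.36. It passed in each FPKM fit too, but FPKM is also scaled by column totals, so these fits repeat the total-count scaling. Over 18 other settings it passed in 6, with log2 fold changes of −0.36 to −0.10 and adjusted p-values of 0.000357 to 1.

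Mki67, which encodes the proliferation antigen Ki-67 on the surface of mitotic chromosomes, read 4.64, 6.87 and 6.75 CPM against 79.4, 79.3 and 84.4 CPM. Top2a, the topoisomerase that untangles sister chromosomes, read 11.3, 16.8 and 16.5 CPM against 77.8, 75.4 and 80.3 CPM. CRE1 was the lowest knockout library for both genes. Mki67 fell 13.2-fold (interval −3.92 to −3.53) and Top2a 5.20-fold (interval −2.58 to −2.18). Foxm1, the transcription factor that works with the MYB-MuvB complex on mitotic genes, read 3.06, 3.48 and 2.96 CPM against 11.3, 8.88 and 10.3 CPM (3.20-fold lower, interval −1.96 to −1.40).

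All 9 kinetochore, centromere and passenger genes fell, by a median of −2.37 on the log2 scale. The NDC80 complex binds microtubules at the outer kinetochore, and its subunits fell to different extents. Ndc80 read 0.619, 0.509 and 1.60 CPM in the knockout libraries, with CRE3 the high one, against 10, 8.05 and 7.91 CPM. Nuf2, its direct partner, read 1.07, 1.47 and 1.06 CPM against 14, 12.5 and 11.2 CPM. Spc25, of the inner end of the complex, kept more of its level, at 5.64, 5.34 and 6.82 CPM against 17, 17.6 and 15.9 CPM. The intervals were −3.83 to −2.72 for Ndc80 and −3.70 to −3.04 for Nuf2, and did not overlap the −1.72 to −1.29 of Spc25. Spc24, the remaining subunit, is not among the 40 genes and was named after its value was seen. It read 0.791, 0.650 and 0.233 CPM against 3.14, 3.65 and 3.03 CPM (log2 fold change −2.54, interval −3.19 to −1.90).

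The chromosomal passenger complex joins Aurora B to INCENP, survivin and borealin and corrects faulty attachments. Incenp, its scaffold, had the smallest of the 39 falls, at 13.3, 11.7 and 11.5 CPM against 25.3, 26.3 and 24.2 CPM. Cdca8, which encodes borealin, read 4.30, 4.66 and 3.56 CPM against 11.7, 10.6 and 10.9 CPM. Birc5, which encodes survivin, read 2.13, 1.98 and 2.13 CPM against 10.7, 10.4 and 11.2 CPM. The levels left in the knockout were 48.1%, 37.9% and 19.3% of the wild type. The interval of Birc5 (−2.63 to −2.12) lay below those of Cdca8 (−1.65 to −1.15) and Incenp (−1.21 to −0.90), while Aurkb, at 25.8% of its wild-type level, overlapped Birc5 and Cdca8 in its interval.

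Cenpf, a kinetochore protein that accumulates late in the cycle, read 1.34, 2.01 and 2.06 CPM against 19.2, 22 and 21.3 CPM, an 11.5-fold fall. Cenpe, the kinesin that moves chromosomes to the spindle equator, read 3.13, 3.84 and 3.56 CPM against 19.7, 20 and 19 CPM, a 5.55-fold fall. Cenpa, the histone H3 variant that defines the centromere, read 1.51, 1.81 and 1.93 CPM against 8.42, 9.29 and 8.91 CPM, a 5.05-fold fall. The interval of Cenpf, −3.79 to −3.25, did not reach those of Cenpe (−2.68 to −2.26) and Cenpa (−2.63 to −2.04).

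The 5 spindle genes all fell and had a median log2 fold change of −2.80. Kif11, the kinesin that pushes spindle poles apart, read 1.92, 2.09 and 2.19 CPM against 17.7, 17.2 and 18.2 CPM, a fall of 8.52-fold. Hmmr, a microtubule-bound protein of spindle poles, read 1.55, 2.09 and 2.29 CPM against 21.8, 14.5 and 19.3 CPM. WT2 was its low wild-type library, far above each knockout library, and the fall was 9.33-fold. Kif2c, which depolymerizes microtubules at centromeres, read 1.10, 1.41 and 1.10 CPM against 8.02, 7.98 and 9.46 CPM, and Kif4, a chromosome-bound kinesin, 1.62, 1.84 and 1.76 CPM against 9.97, 8.74 and 10 CPM. They fell 6.98-fold and 5.49-fold. Tpx2, which activates Aurora A and nucleates spindle microtubules, kept 37.7% of its level, at 12.5, 11.4 and 12.1 CPM against 30.9, 32.5 and 32.1 CPM. Its interval of −1.55 to −1.27 overlapped none of the other 4, the nearest being Kif4 at −2.74 to −2.17.

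All 6 cytokinesis genes fell, and their median log2 fold change was −2.35. Prc1, which bundles the microtubules of the central spindle, read 3.71, 4.41 and 3.46 CPM against 33.1, 34.2 and 32.1 CPM, a fall of 8.52-fold. Kif23 and Racgap1 encode the partners of centralspindlin and differed in size of change. Kif23 read 0.584, 1.38 and 0.798 CPM in the knockout libraries, from 17, 49 and 24 counts, against 8.93, 8.24 and 9.58 CPM. Racgap1 read 9.49, 6.70 and 8.28 CPM against 23.3, 24.6 and 23.7 CPM. Their intervals, −3.67 to −2.80 and −1.77 to −1.35, did not overlap.

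Ect2, the exchange factor that centralspindlin recruits to switch on RhoA, read 2.65, 3.19 and 2.49 CPM against 13.5, 14.6 and 15.2 CPM and fell 5.15-fold. Kif20a, a kinesin that helps bring the passenger complex to the central spindle, read 6.53, 5.76 and 5.82 CPM against 30.5, 31 and 29.5 CPM and fell 5.03-fold. Anln, the ring scaffold anillin, kept 23.7% of its level, at 9.28, 10.3 and 13 CPM against 46.9, 44.3 and 45.9 CPM. CRE3 was the high knockout library for Anln.

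**Figure D3:**
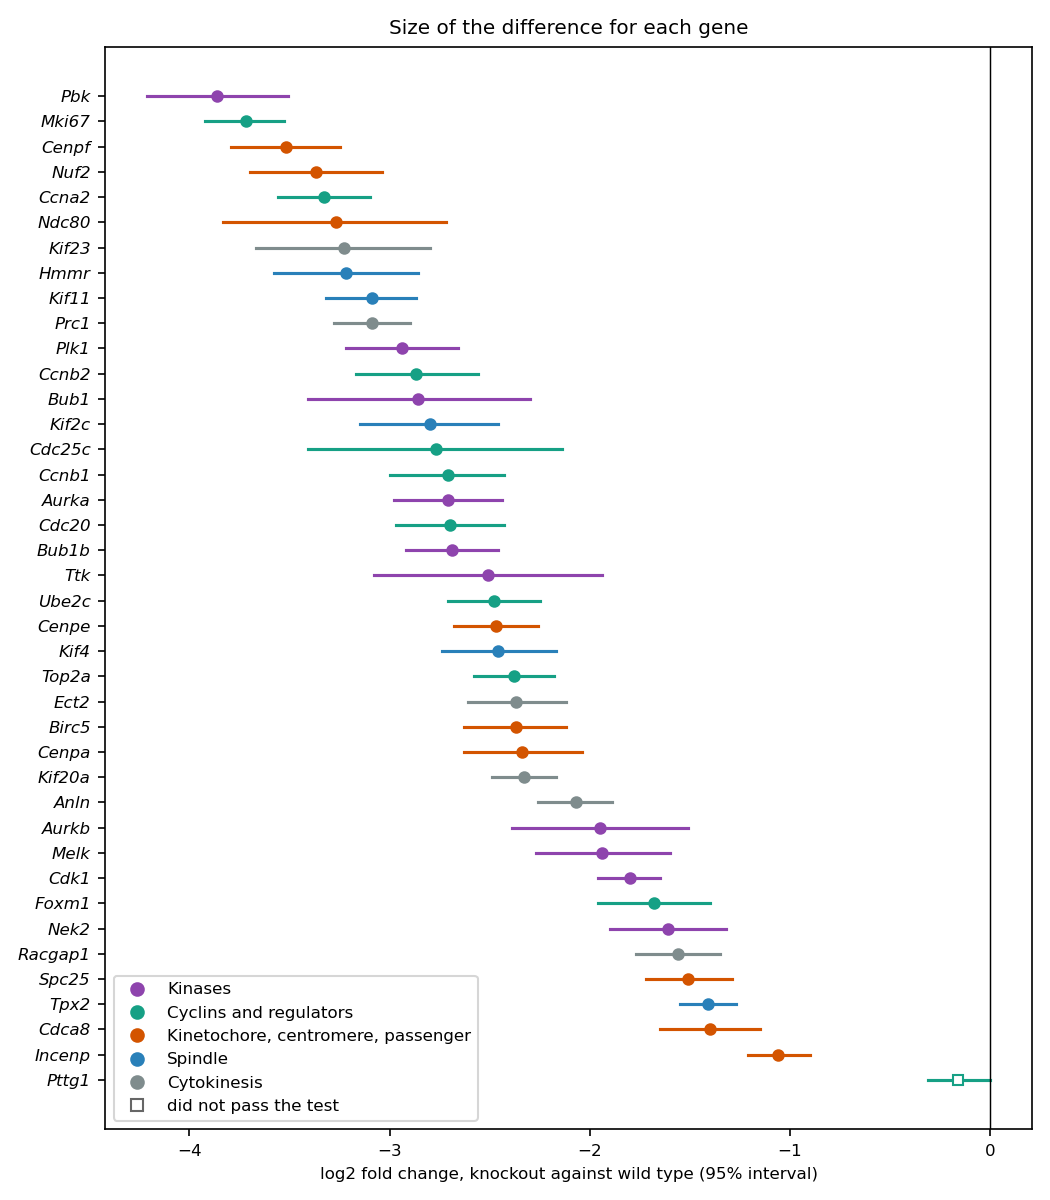
Log2 fold change of knockout against wild type for each of the 40 genes (points, coloured by role) with its 95% interval (lines), from Pbk at −3.86 to Pttg1 at −0.16. The interval of every gene but Pttg1 lies below that of Pttg1.

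Ranked by what was left in the knockout, 28 genes stood under 20% of the wild-type level, 10 between 20% and 40%, and 2 above 40%, Incenp and Pttg1. Spread between knockout libraries was wider than between wild-type libraries, with a median coefficient of variation of 14.3% against 5.01%. Counts of these genes were lower in the knockout, and low counts alone widen this measure. How much of the gap they account for was not tested. In the knockout, 6 genes had a library with under 20 counts. Between genes, levels are compared per gene length with the deposited FPKM. The wild-type FPKM of the 40 genes ran from 1.41 for Cdc25c to 16.3 for Ube2c, with a median of 5.50. Ube2c at 16.3 ± 0.345 and Top2a at 16 ± 0.517 FPKM led and did not differ beyond their spread, and Prc1 followed at 9.93 ± 0.309 FPKM. In the knockout the order was led by Pttg1 at 6.60 ± 0.188 and Incenp at 3.48 ± 0.268 FPKM, and the median was 0.674 FPKM. Across the 40 genes, which share libraries and are not independent, the wild-type FPKM and the log2 fold change had a Spearman rho of 0.13.

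Among 87 further mitosis genes, listed by function, 72 fell, 7 rose and 8 did not pass, with a median log2 fold change of −1.51, beside 32.1% of tested genes lower and 30.7% higher. All 8 further cytokinesis genes fell (median −2.63), led by Iqgap3 (−3.55), Depdc1b (−3.28) and Depdc1a (−2.97). Of 19 spindle genes, 16 fell and 2 rose (median −2.49). The largest falls were those of Troap (−3.51), Aspm (−3.50), a spindle-pole protein, and Nusap1 (−3.33), which bundles microtubules. Of 36 kinetochore and centromere genes, 28 fell and 2 rose (median −1.28). Knl1, the platform for checkpoint proteins, fell 13-fold, and Ska1 (−3.56) and Kntc1 (−3.36) fell too. Of 16 kinases, cyclins and regulators, 14 fell and 2 rose (median −1.17), with Fbxo5, an inhibitor of the anaphase-promoting complex, at −2.35, Cdca3 at −2.09 and Espl1, the separase that securin holds in check, at −1.77. Of 8 condensin genes, 6 fell and 1 rose (median −1.18), led by Ncapg2 (−1.77), Ncaph (−1.69) and Ncapd2 (−1.37).

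The 7 rises in these lists were small. Hjurp, the chaperone of the centromeric histone, read 137, 133 and 127 CPM against 86.1, 87.8 and 89.6 CPM (log2 fold change 0.59). Zwint, a kinetochore protein, was at 0.48 and Gtse1 at 0.43, and these 3 also passed as rises with upper-quartile factors and total counts. Ncaph2 (0.27), Cks2 (0.24), Ckap5 (0.23) and Psrc1 (0.20) did not pass with total counts, where Psrc1 turned to −0.01. Ckap5 was scattered in the knockout, at 123, 160 and 173 CPM against 129, 125 and 133 CPM. With total counts the median log2 fold change of all tested genes shifted by −0.209, and changes are read relative to it. Rises made up 48.9% of all calls under TMM scaling, 38% under upper-quartile scaling and 26.8% under total counts.

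A list of the core subunits of the anaphase-promoting complex and its activator Fzr1 held 15 genes. Of these 5 fell, 6 rose and 4 did not pass, shares near the 32.1% lower and 30.7% higher of all tested genes. The log2 fold changes ran from −0.42 to 0.36 with a median of 0.04. Anapc15 (−0.42), Anapc11 (−0.34) and Anapc5 (−0.31) were the largest falls, and Fzr1 (0.36), which acts from late mitosis, and Anapc13 (0.27) the largest rises. With total counts 9 of the 15 fell and 1 rose, and Anapc13 did not pass. TTTGAA stood in 2 of their 17 promoter windows, or 11.8%, near the 17.9% of all windows and 12.3% of the windows of tested genes. None of these 15 genes fell 2-fold, while Cdc20 and Ube2c, which act with them, fell by more than 4-fold.

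The DREAM and MYB-MuvB complexes hold mitotic genes off in resting cells and switch them on in dividing ones. Of 12 genes, 6 fell and 3 rose, beside 62.7% of all tested genes called in either direction. With total counts 8 fell and 2 rose. Mybl2, the MYB subunit present in dividing cells, read 0.722, 0.791 and 0.731 CPM against 2.44, 3.65 and 2.96 CPM (log2 fold change −2.0), with Rbl1, which encodes p107, at −1.04 and the MuvB subunit Lin52 at −0.41. E2f4 (0.51) and Tfdp2 (0.37), an E2F and a DP subunit, rose, and these 5 genes kept their directions under each of the other 3 scalings. Of 34 DNA replication genes, 28 fell and none rose (median −1.03), led by Mcm10 (−2.76), Tk1 (−2.53) and Uhrf1 (−2.53). TTTGAA stood in 7 of their 36 windows, or 19.4%, against 17.9% of all windows and 12.3% of the windows of tested genes. Of 14 cell cycle inhibitors and G1 cyclins, 8 rose and 4 fell (median 0.20), beside 30.7% of all tested genes higher and 32.1% lower. With total counts 6 rose and 5 fell, with a median of −0.01. With TMM factors Ccng2 (1.37) and Cdkn2d (1.09) rose most, and Cdkn1c (−1.34), Ccnd1 (−1.01) and Cdkn2a (−0.53) fell most.

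**Figure D4:**
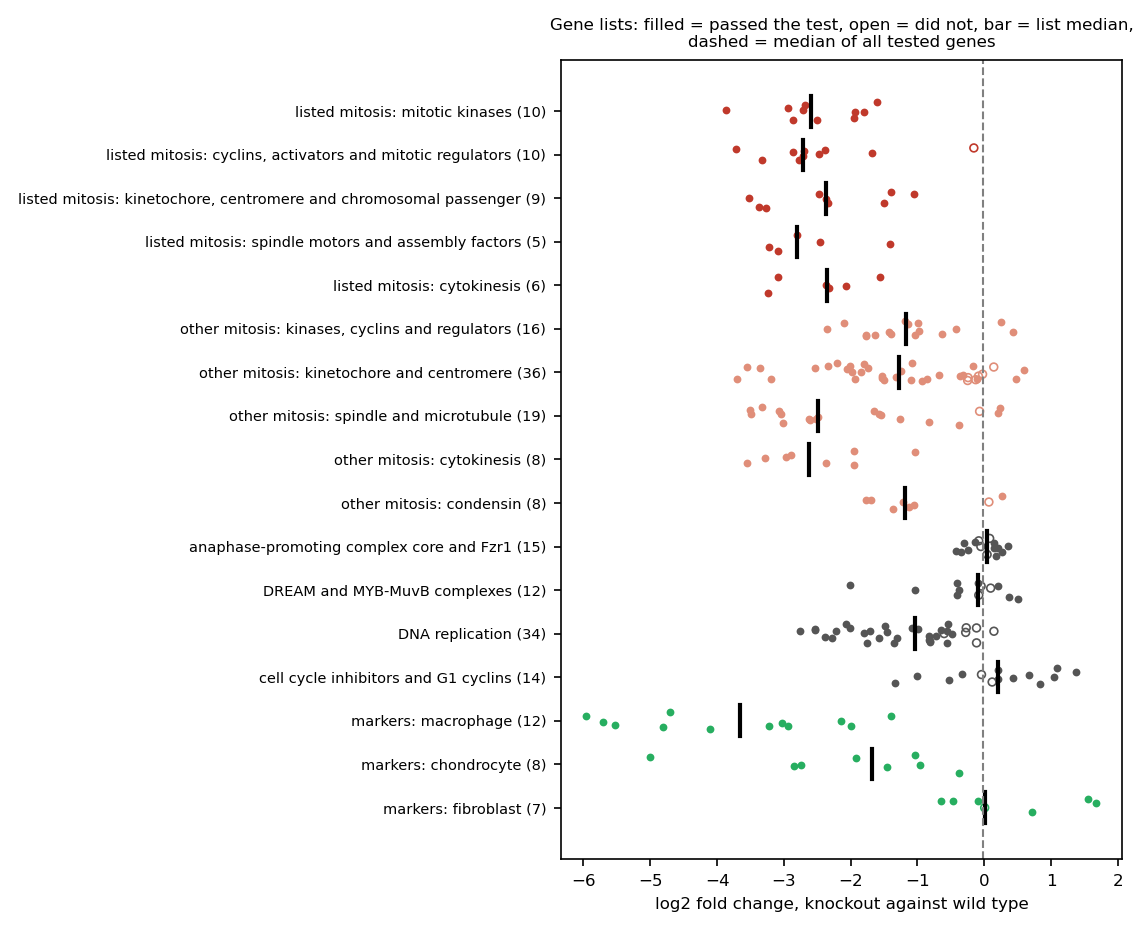
Log2 fold change of every tested gene in the mitosis lists, related cell cycle lists and 3 marker lists, with the number of tested genes in brackets. Points are genes, filled where they passed the test, bars are list medians and the dashed line is the median of all tested genes (−0.02). The medians of the 5 roles of the 40 mitosis genes lie between −2.80 and −2.35, and that of the anaphase-promoting complex list is 0.04.

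Cell type markers moved in the same libraries, beside 32.1% of all tested genes lower and 30.7% higher. All 12 macrophage markers fell (median −3.66); they summed to 314 to 328 CPM in knockout libraries against 2820 to 2851 CPM in wild-type ones, and none was at 0 in every library. All 8 chondrocyte markers fell (median −1.68), with sums of 2777 to 2900 CPM against 8021 to 8214 CPM. Of 7 fibroblast markers 3 rose and 3 fell (median 0.01). The set did not rise as a whole, though its sum was 26773 to 27741 CPM against 21106 to 21340 CPM. Pericyte and smooth muscle markers summed to 250 to 266 CPM against 428 to 439 CPM, with 4 of 5 lower. Pdgfrb alone gave 244 CPM of the wild-type sum. The pericyte marker Rgs5 did not pass, at 2.28 ± 0.33 CPM in the knockout against 2.14 ± 0.28 CPM. Osteoblast markers summed to 6.94 to 7.55 CPM against 70.8 to 76.7 CPM, with all 4 tested markers lower and Bglap not tested. Most of both sums came from Ibsp alone, at 5.48 ± 0.457 CPM in the knockout against 68.1 ± 3.29 CPM. The part of each marker list in the fall of the mitosis genes was not tested.

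The remaining marker lists were low. The 5 erythroid markers were under 1 CPM in every library and summed to 0.593 to 1.34 CPM in knockout libraries against 0.261 to 0.68 CPM. Endothelial markers summed to 3.39 to 4.69 CPM against 4.17 to 4.83 CPM. Of the 4 tested, 1 was lower and 1 higher, beside 32.1% and 30.7% of all tested genes. Neutrophil and granulocyte precursor markers summed to 5.85 to 6.39 CPM against 0.417 to 1.01 CPM, with S100a8 and Camp higher of 3 tested. S100a8 and Camp gave 2.51 and 3.48 CPM of the knockout sum. The third, S100a9, did not pass (log2 fold change −0.68), at 0.189 ± 0.116 CPM in the knockout against 0.307 ± 0.268 CPM. The neutrophil marker Ly6g was at 0 in 5 of the 6 libraries, and the precursor markers Elane and Mpo in 5 and 4. Lymphocyte markers, of which 4 of 5 were matched, summed to 1.58 to 2.93 CPM against 48.4 to 51.2 CPM, nearly all from Ptprc, the 1 tested marker, which fell and which other leukocytes also express.

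**Figure D5:**
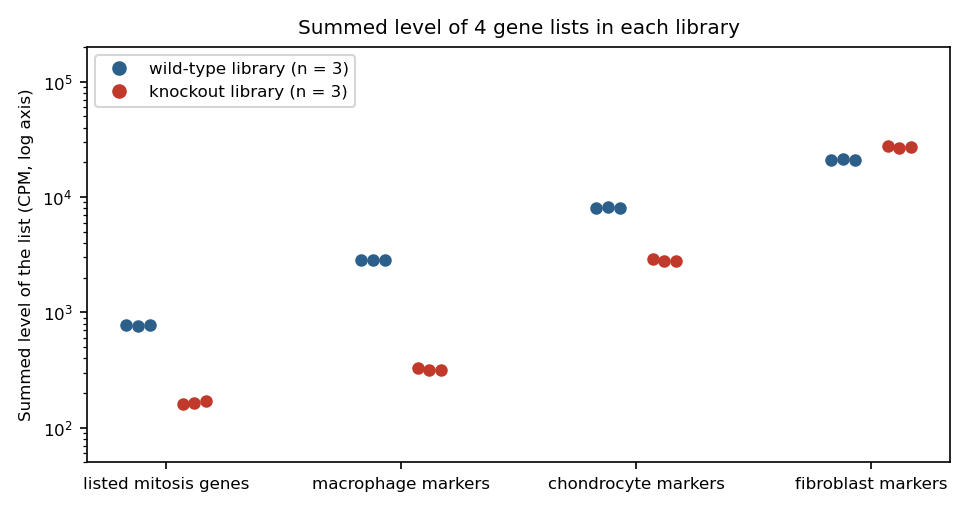
Summed level of gene lists in each library, in TMM-normalized CPM on a log axis, with 1 point per library (3 per group). The sums of the 40 mitosis genes, the macrophage markers and the chondrocyte markers are lower in all 3 knockout libraries. That of the fibroblast markers is higher, although 3 of its 7 genes fell.

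Separate counts are uncertain for 8 of the 40 genes, which overlap another coding gene of the table in GENCODE M21. Ube2c, Ccna2, Cdc20, Cdca8, Prc1, Kif20a and Kif4 overlap one on the opposite strand and Foxm1 one on its own strand. Whether strand was used in counting is not stated in the labels.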

How the data were processed

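RNA was isolated with TRIzol and sequenced from VAHTS Universal V6 libraries, per the labels' protocols. Tools named in the submitters' processing notes are HTSeq, HISAT2 and fastp, with GRCm39 as the build; versions are not given. The authors deposited whole-number read counts and FPKM values by gene symbol. In all 12594 genes checked, the deposited FPKM equals count over column total and 1 gene length, within 0.1%. Columns WT1 to WT3 match titles by number; CRE1 to CRE3 show their group alone. Libraries within groups varied beyond sampling noise (chi-square per degree of freedom 3.25 to 8.65).

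The counts went into edgeR 4.0.16 (R 4.3.3), with a two-sided quasi-likelihood test on group alone, TMM factors and filterByExpr at a minimum count of 10, leaving 15028 genes. The SE is the log2 fold change over the square root of F, and 95% intervals built on it are unadjusted for the number of genes. Where intervals of different genes are compared, no test between the genes was run. The genes, lists and tests were chosen with earlier results of these data known. Named are the 40 genes, Mfn2 and, of each further list, the 3 largest falls and 2 largest rises among called genes. Marker lists are given by their sums. Col2a1, Acan, Matn3, S100a8, S100a9, Camp, Ly6g, Elane, Mpo, Ptprc, Bglap, Ibsp, Rgs5, Pdgfrb and Spc24 are named outside this rule, after their values were seen. Alternatives were DESeq2 1.42.0, limma-voom (limma 3.58.1), 3 scalings, 2 count filters, a 1.2-fold threshold, omission of each library, a replicate block, and limma on log2(FPKM + 1) and log2(FPKM + 0.1). Promoter windows are RefSeq's, on GRCm38.p6.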

Additional observations from a re-analysis of the deposited data

How the results depend on the processing

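Over the 18 other settings 37 to 40 of the mitosis genes were lower and none was higher, the 37 coming where a mean FPKM of at least 1 left only 37 to test. Of the single-gene values, 708 kept their direction and side of the threshold, and the other 6 were Pttg1, which passed there. The median log2 fold change was −2.56 with limma-voom, −2.58 with upper-quartile factors, −2.70 with total counts, −2.64 on log2(FPKM + 0.1), −1.72 on log2(FPKM + 1) and −1.57 on log2(FPKM + 1) without a filter, where the pseudocount by its construction shrinks differences of low genes. With each library left out it was −2.53 to −2.45. Against a 1.2-fold change 5856 genes were called in place of 9430, and 1 gene of the anaphase-promoting complex list in place of 11, since the test asks for a larger change. Further mitosis genes lower numbered 50 to 76 and DNA replication genes lower 28 to 33. Same-numbered columns did not deviate together (correlations −0.086, 0.055 and −0.095), so no pairing by number was seen. With 3 libraries per group this check cannot show that there is none. With the replicate block on these numbers 39 of the mitosis genes were lower, with a median of −2.51, and 9094 genes were called. Depth limits the genes with under 20 counts in a knockout library.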
